A study of Mus musculus with 4 samples.

Results

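The genes described here are 10 chemokines that dendritic cells (DCs) can make: Ccl22, Ccl17, Ccl3, Ccl4, Ccl5, Ccl6, Ccl9, Cxcl9, Cxcl10 and Cxcl16. They were chosen by name, and each was read from the 1 probe set that carries its symbol alone, so all 10 were found among the 19938 genes named on the array. The cells were cultured from bone marrow of C57BL/6 mice, either miR-142+/+ (wt) or miR-142-/- (ko), for 8 days with 200 ng/ml of Flt3 ligand, the growth factor that drives DC development. Cells of both genotypes were sorted as B220-negative and CD11c-positive. CD4-equivalent DCs were CD172-positive, CD11b-positive and low in CD24, and CD8-equivalent DCs were CD172-negative, CD24-positive and low in CD11b. That gives 4 groups with 1 array each. What was removed from the miR-142 locus, and whether an array represents a single mouse, a pool or several cultures, is not given in the labels.

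Chemokines are small secreted proteins that guide cells through G protein-coupled receptors, and their letters (CC or CXC) name the spacing of the first conserved cysteines. DCs use them to bring T cells, NK cells and other myeloid cells to the site where antigen is shown: CCL17 and CCL22 act on CCR4, CCL3, CCL5, CCL6 and CCL9 on CCR1, CXCL9 and CXCL10 on CXCR3, and CXCL16 on CXCR6. Conventional DCs that carry CD11b and CD172a, the counterparts of CD4-equivalent DCs, are known for chemokines of the inflammatory kind, while those that cross-present antigen, the counterparts of CD8-equivalent DCs, are known for CXCL9 and CXCL10 after activation. miR-142 is a microRNA of blood cells that yields a strand from each arm of its hairpin.

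The deleted microRNA is shown first because the genotypes differ by it. Both mature strands are given from RefSeq (build GRCm38.p6), 5′ to 3′, with the seed, bases 2 to 8, in capitals. The strands carry different seeds.
mmu-miR-142a-5p, chr11:87756867-87756887, plus strand: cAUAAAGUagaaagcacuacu
mmu-miR-142a-3p, chr11:87756903-87756925, plus strand: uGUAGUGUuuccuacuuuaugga

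Promoters are shown for 2 pairs of chemokine genes that lie close together and share a receptor, since within each pair 1 gene was detected and the other was not. Of the 10 genes, 7 had a promoter in the RefSeq table used, and Ccl4, Ccl5 and Cxcl16 had none. Each run is the 250 bases before the gene's start, 5′ to 3′ along the gene (build GRCm38.p6). Capitals mark matches, on either strand, to an interferon-stimulated response element core (ISRE, GAAANNGAA), a gamma-activated sequence (GAS, TTCNNNGAA) or the NF-kB consensus (kB), and no marked matches overlap each other.
Cxcl10 promoter, chr5:92348890-92349139, minus strand: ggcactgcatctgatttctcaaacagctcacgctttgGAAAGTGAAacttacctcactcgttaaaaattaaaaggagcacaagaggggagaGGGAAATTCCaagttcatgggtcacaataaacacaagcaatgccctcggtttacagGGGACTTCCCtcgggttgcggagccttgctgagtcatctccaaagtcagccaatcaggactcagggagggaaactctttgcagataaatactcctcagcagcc
Cxcl9 promoter, chr5:92328080-92328329, minus strand: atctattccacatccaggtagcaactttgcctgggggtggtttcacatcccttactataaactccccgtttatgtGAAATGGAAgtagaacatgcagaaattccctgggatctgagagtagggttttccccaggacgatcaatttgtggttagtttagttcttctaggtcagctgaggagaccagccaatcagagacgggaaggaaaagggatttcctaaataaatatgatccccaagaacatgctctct
Ccl22 promoter, chr8:94745434-94745683, plus strand: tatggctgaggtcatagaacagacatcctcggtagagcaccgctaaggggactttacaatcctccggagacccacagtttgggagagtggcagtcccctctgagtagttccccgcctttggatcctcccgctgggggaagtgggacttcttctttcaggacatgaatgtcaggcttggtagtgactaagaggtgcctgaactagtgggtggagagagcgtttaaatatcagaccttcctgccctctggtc
Ccl17 promoter, chr8:94810203-94810452, plus strand: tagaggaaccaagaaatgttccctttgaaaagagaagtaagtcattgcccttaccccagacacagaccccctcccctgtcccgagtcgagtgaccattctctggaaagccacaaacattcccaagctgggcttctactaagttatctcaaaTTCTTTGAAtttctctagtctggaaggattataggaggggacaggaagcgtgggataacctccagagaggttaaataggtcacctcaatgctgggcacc

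Across 32841 RefSeq promoter windows of this length, 7.13% held the ISRE core, 7.02% the GAS and 3.9% the kB consensus. The Cxcl10 window held 1 ISRE core, which began at position -213 from the start, and 2 kB matches, which began at -159 and -103. The Cxcl9 window held 1 ISRE core, which began at -175, and the Ccl17 window held 1 GAS, which began at -99. These letters were found nowhere in the Ccl22 window. Of the other windows, that of Ccl3 held 1 ISRE core, that of Ccl9 held 1 kB match and that of Ccl6 held none of the 3 motifs. A match describes the letters in this window and is no measurement of binding.

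All values below are RMA log2 expression values of the authors' deposited table, and a difference of 1 is a 2-fold difference. A value under 5.68, which is where the middle of the probe sets naming 1 gene lay, was treated as too close to background to compare, and this value is called the floor. Between 9774 and 9821 genes reached it on an array. With 1 array a group there are no replicates, so a difference between 2 arrays has no replicate check and no p-value. A test was possible only for a difference shared by both subsets or both genotypes, with limma, and p-values from it cover no more than how these arrays scatter, which may be technical. Mir142 itself read 10.37 and 9.87 in wt against 4.92 and 4.79 in ko (CD4- and CD8-equivalent in each case), and of 12 CD4-equivalent markers 11 were lower in CD8-equivalent DCs by limma (adjusted p under 0.05). Of 14 CD8-equivalent markers 8 were higher in CD8-equivalent DCs by limma. However, 5 of 12 compared were also at least 2-fold higher in ko than in wt CD4-equivalent DCs and 0 lower (median 0.74). These were Clec9a (10.85 against 7.78), Cadm1, Tlr12, Irf8 and the sort marker Cd24a (11.98 against 10.98).

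Of the 10 chemokines, 5 reached the floor on all 4 arrays (Ccl3, Ccl5, Ccl6, Ccl9 and Cxcl16). Another 2, Ccl22 and Cxcl10, reached it on the CD4-equivalent arrays only, and 3, Ccl17, Ccl4 and Cxcl9, on none. The plot of chemokine values by array shows each of these values.

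**Figure D1:**
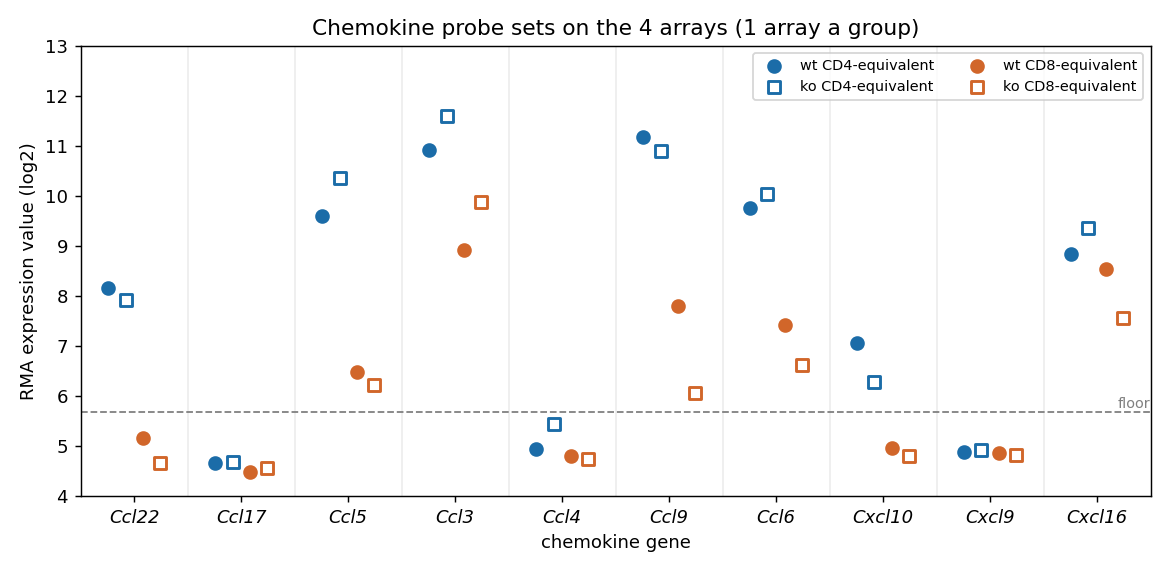
RMA log2 value (vertical axis) of the probe set of each of 10 chemokine genes (horizontal axis) on the 4 arrays, 1 point an array: circles are wt, open squares ko, blue CD4-equivalent and orange CD8-equivalent DCs. The dashed line is the floor of 5.68. Both blue points lie above both orange points for Ccl22, Ccl5, Ccl3, Ccl9, Ccl6, Cxcl10 and Cxcl16. The share of all genes with such an order was not counted. For Ccl22 and Cxcl10 both orange points lie under the line, and Ccl17, Ccl4 and Cxcl9 lie under it on all arrays.

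Among the ligands of CCR4, Ccl22, which attracts regulatory and type 2 helper T cells, was seen in CD4-equivalent DCs only. It read 8.17 in wt and 7.92 in ko CD4-equivalent DCs, and 5.15 and 4.67 in wt and ko CD8-equivalent DCs, which is below the floor. The genotypes lie close together within CD4-equivalent DCs (-0.25, ko minus wt). With the low values set to the floor, Ccl22 was at least 5.61-fold higher in CD4- than in CD8-equivalent DCs of wt and at least 4.74-fold higher in ko. Ccl17, which shares the receptor, stayed between 4.48 and 4.69 on the 4 arrays, so nothing can be said about its differences. The CX3C chemokine gene Cx3cl1, which lies between Ccl22 and Ccl17 on chromosome 8 in the RefSeq order, was also below the floor on all arrays (4.53 to 5.20).

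Among the inflammatory CC chemokines Ccl3, Ccl4 and Ccl5, Ccl5, which acts on CCR1 and CCR3 and attracts T cells, monocytes and eosinophils, had the largest subset difference in both genotypes. Ccl5 read 9.61 in wt and 10.36 in ko CD4-equivalent DCs against 6.48 and 6.23 in wt and ko CD8-equivalent DCs. CD8-equivalent DCs had 8.74-fold less of it in wt and 17.5-fold less in ko. On the CD8-equivalent arrays it lay just above the floor. Of 10 T and NK cell markers measured, 9 lay below the floor on all arrays, and Nkg7, a granule protein gene of cytotoxic cells, read 7.28 and 8.09 in wt and ko CD8-equivalent DCs and lay below the floor in CD4-equivalent DCs. Their part in the level of Ccl5 was not tested.

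Ccl3, known as MIP-1 alpha, attracts monocytes, NK cells and activated T cells, and of the chemokines at or above the floor it was the 1 whose value was higher in ko in both subsets. It read 10.91 in wt and 11.60 in ko CD4-equivalent DCs, and 8.93 in wt and 9.87 in ko CD8-equivalent DCs. Ccl3 was lower in CD8-equivalent DCs by 3.97-fold (wt) and 3.32-fold (ko). Ccl4, or MIP-1 beta, a close relative of Ccl3, read 4.95, 4.81, 5.45 and 4.75 in wt CD4-, wt CD8-, ko CD4- and ko CD8-equivalent DCs. All 4 values lie under the floor, so the value of 5.45 in ko CD4-equivalent DCs is no detected level.

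Ccl9 and Ccl6, a pair of CCR1 ligands of rodents that myeloid cells make without activation, were far lower in CD8- than in CD4-equivalent DCs. Ccl9, also called MIP-1 gamma, read 11.18 in wt and 10.91 in ko CD4-equivalent DCs, then 7.80 in wt and 6.06 in ko CD8-equivalent DCs. The drop to CD8-equivalent DCs was 10.4-fold in wt, at position 17 from the lowest difference of 9998 genes compared, and 28.7-fold in ko, at position 5 of 10118. The value of 6.06 behind the drop in ko lay just above the floor. Ccl6 read 9.77 and 10.04 in wt and ko CD4-equivalent DCs and 7.43 and 6.63 in wt and ko CD8-equivalent DCs. In CD8-equivalent DCs it was lower by 5.06-fold (wt) and 10.7-fold (ko). For both genes the lowest of the 4 arrays was ko CD8-equivalent, as it was for Ccl5 and Cxcl16, while for Ccl3 it was wt CD8-equivalent.

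Of the CXCR3 ligands, which attract NK cells and type 1 helper and cytotoxic T cells, Cxcl10 was detected in CD4-equivalent DCs at a modest level. It read 7.07 in wt and 6.29 in ko CD4-equivalent DCs, and 4.96 and 4.80 in wt and ko CD8-equivalent DCs, under the floor. With the low values at the floor, it was at least 2.62-fold higher in CD4-equivalent DCs of wt and at least 1.53-fold higher in those of ko. Cxcl9 stayed between 4.82 and 4.92 on all arrays, and the third gene of this group, Cxcl11, between 4.71 and 4.87. Neither Cxcl9 nor Cxcl11 was therefore seen in either subset, while their neighbour Cxcl10 was.

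Cxcl16, which is made as a membrane-bound scavenger receptor and shed as a ligand of CXCR6, was the chemokine with the least difference between the wt subsets among those at or above the floor on all arrays. It read 8.85 in wt and 9.36 in ko CD4-equivalent DCs, and 8.55 in wt and 7.55 in ko CD8-equivalent DCs. In wt the subsets lay 1.23-fold apart, and in ko 3.51-fold, with CD8-equivalent DCs lower in both.

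Read as a group, the chemokines compared had their higher values in CD4-equivalent DCs in both genotypes. In wt, 6 of the 7 chemokines compared were at least 2-fold lower in CD8-equivalent DCs, where 3.14% of all 9998 genes compared were, and 0 were higher, where 2.1% were. In ko 7 of 7 compared were lower by that much on the values as measured, where 3.9% of 10118 genes were, and 0 were higher, where 3.39% were. With values below the floor set to it, 6 of 7 were, since Cxcl10 then lay at -0.61, and 3.46% of all genes were. The median of the chemokines compared, with such values at the floor, was -2.34 in wt and -2.24 in ko, against 0.037 and 0.11 over all genes compared. Ccl22 and Cxcl10 entered these comparisons only through the CD4-equivalent arrays, so they could not have come out higher in CD8-equivalent DCs, and Ccl17, Ccl4 and Cxcl9 did not enter. Among the 5 chemokines above the floor on all arrays, 4 in wt (all but Cxcl16) and 5 in ko were at least 2-fold lower. Other lists also differed between the subsets: the summed linear level of 12 monocyte and macrophage markers was 17492 in CD4- and 9516 in CD8-equivalent DCs of wt and 16653 and 4422 in ko, with 5 of 9 compared at least 2-fold lower in wt and 10 of 10 in ko (9 with low values at the floor). Neutrophil markers summed to 1092 and 429 in wt and 4301 and 569 in ko. In wt CD4-equivalent DCs only 4 of these 14 markers reached the floor: Mmp8 (8.48), Csf3r (7.83), S100a8 (6.54) and Lcn2 (6.47). Of 10 genes of migratory and mature DCs, 4 were at least 2-fold lower in CD8-equivalent DCs of either genotype. Plasmacytoid DC markers went the other way, with sums of 5115 in CD4- and 12644 in CD8-equivalent DCs of wt and 9803 and 15219 in ko. Of 9 compared, 8 in wt and 5 in ko were at least 2-fold higher in CD8-equivalent DCs. The part of these cells in the subset difference of the chemokines was not tested. In bulk samples like these, fewer cells that make a chemokine and less RNA per cell cannot be told apart.

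**Figure D2:**
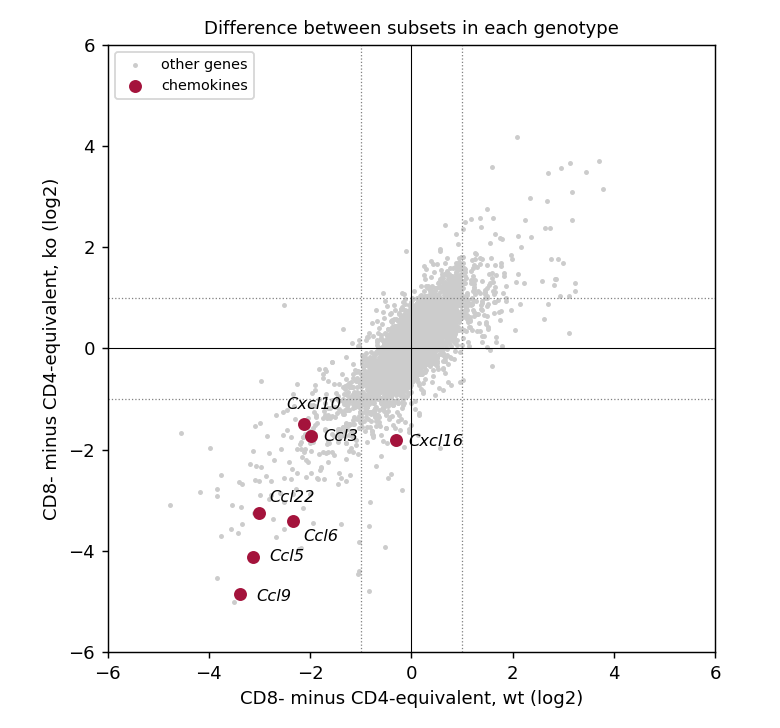
Difference between CD8- and CD4-equivalent DCs (log2) in wt (horizontal axis) and ko (vertical axis), 1 point a gene, for the 9877 genes that could be compared in both; the 7 chemokines among them are red and named. Dotted lines mark 2-fold; 6 chemokines are plotted past 2-fold on the lower side in both genotypes, of which Cxcl10 stays within 2-fold in ko (-0.61) once values below the floor are set to it, and Cxcl16 (-0.30 in wt and -1.81 in ko) does so in ko only.

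The subset difference was tested over both genotypes in an additive limma fit of 10239 genes, with Benjamini-Hochberg adjustment over all of them. In that fit 6.35% of genes were lower and 7.98% higher in CD8-equivalent DCs. Ccl22 fell by 3.13 ± 0.13 (SE, adjusted p = 0.0020), Ccl9 fell by 4.11 ± 0.35 (adjusted p = 0.0072) and Ccl5 fell by 3.63 ± 0.25 (adjusted p = 0.0047). Ccl6 fell by 2.88 ± 0.27 (adjusted p = 0.0082), Ccl3 fell by 1.86 ± 0.13 (adjusted p = 0.0047) and Cxcl10 fell by 1.80 ± 0.18 (adjusted p = 0.0099). Each of these 6 was lower in both genotypes. Cxcl16, with a mean difference of -1.06 ± 0.36 (SE), did not pass (adjusted p = 0.11). The sizes, errors and p-values of Ccl22 and Cxcl10 rest on CD8-equivalent values below the floor, and these genes entered the fit only through the subset where they are high, so their calls are no support beside those of Ccl9, Ccl5, Ccl6 and Ccl3.

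Between genotypes the differences of the chemokines lay in both directions. In CD4-equivalent DCs 0 of the 7 compared differed by 2-fold, where 1.39% of 9978 genes were higher in ko by that much and 0.952% lower. Ccl5 (0.75), Ccl3 (0.69), Cxcl16 (0.51) and Ccl6 (0.27) had the higher value in ko, and Cxcl10 (-0.78), Ccl9 (-0.27) and Ccl22 (-0.25) the lower, with a median of 0.27 over these 7 against -0.077 over all genes compared. On the linear scale Cxcl10 was 1.71-fold lower in ko and Ccl5 1.68-fold and Ccl3 1.61-fold higher, which placed Cxcl10 at position 179 from the lowest difference, and Ccl5 and Ccl3 at positions 260 and 302 from the highest.

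In CD8-equivalent DCs 5 chemokines could be compared, and 1 of them, Ccl9, was at least 2-fold lower in ko (-1.74, or 3.33-fold), at position 26 from the lowest of 9972 genes. There 1% of all genes compared were at least 2-fold lower and 1.14% higher. The Ccl9 value in ko CD8-equivalent DCs, 6.06, lay just above the floor. Cxcl16 was 1.99-fold lower in ko (-0.99), just inside 2-fold as deposited and just past it after cyclic loess normalization (-1.02). Ccl6 was 1.74-fold lower (-0.80) and Ccl5 1.19-fold lower (-0.25), while Ccl3 was 1.93-fold higher (0.95), at position 136 from the highest difference. The median of the 5 was -0.80, against 0.0044 over all genes compared. Neither CD8-equivalent array had Ccl22 or Cxcl10 at the floor, so their genotype differences there were not compared.

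**Figure D3:**
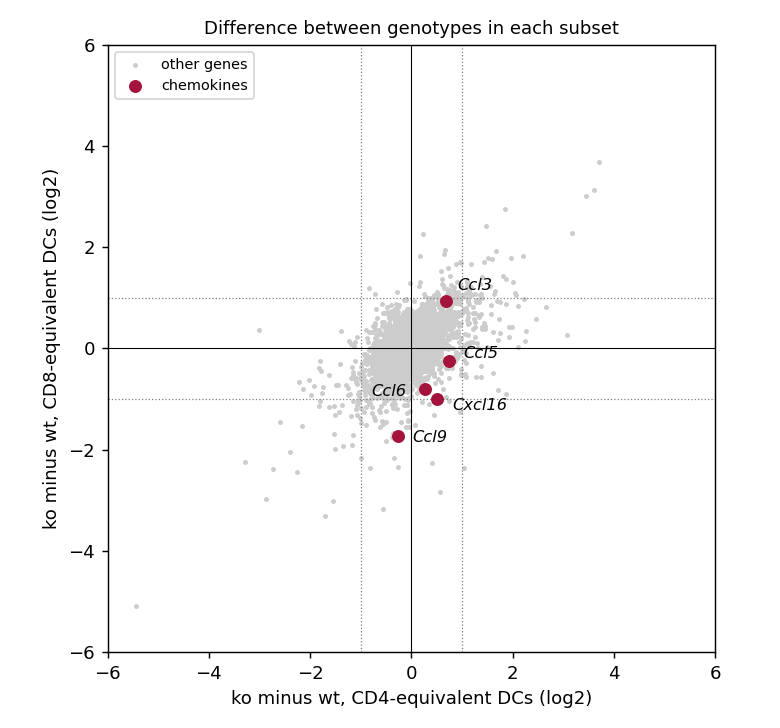
Difference between ko and wt (log2) in CD4-equivalent (horizontal axis) and CD8-equivalent DCs (vertical axis), 1 point a gene, for the 9711 genes that could be compared in both subsets; the 5 chemokines among them are red and named. Dotted lines mark 2-fold; Ccl3 is above 0 on both axes, Ccl9 is below 0 on both, and Ccl5, Ccl6 and Cxcl16 lie to the right of 0 and below it.

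No chemokine passed the limma test of a genotype effect shared by both subsets: 0 of 7 tested, where 17 of 10239 genes (0.166%) did. At an unadjusted p under 0.05 that fit had 1599 genes, and Ccl3, Ccl9 and Ccl22 were among them. Ccl3 came closest to the threshold, with a mean difference of 0.82 ± 0.13 (SE, adjusted p = 0.084) and the higher value in ko in 2 of 2 subsets. With limma's trended and robust prior Ccl3 did pass (adjusted p = 0.016), and over all alternatives its adjusted p ran from 0.016 to 0.15. The mean difference was -1.004 ± 0.35 for Ccl9 (adjusted p = 0.28), -0.36 ± 0.13 for Ccl22 (adjusted p = 0.28) and -0.46 ± 0.18 for Cxcl10 (adjusted p = 0.32). The means, errors and p-values of Ccl22 and Cxcl10 include CD8-equivalent values below the floor, so they give no measured genotype difference in that subset. For Ccl5, Ccl6 and Cxcl16 the adjusted p ran from 0.70 to 0.80.

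The genotype differences of the 2 subsets also differed from each other. The difference in CD8-equivalent DCs minus that in CD4-equivalent DCs was -1.51 for Cxcl16, -1.46 for Ccl9, -1.07 for Ccl6 and -0.999 for Ccl5, against 0.26 for Ccl3. Put another way, the gap between the subsets was wider in ko for Cxcl16, Ccl9, Ccl6 and Ccl5, and narrower for Ccl3. Wider gaps in ko were not limited to chemokines: over all genes 738 passed 2-fold between subsets in ko and 524 in wt. With 1 array a group the difference between the 2 genotype differences has no test.

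Markers of other cells differed with the genotype as well. In CD8-equivalent DCs 6 of 9 monocyte and macrophage markers compared were lower in ko by 2-fold or more, also with low values at the floor, 0 were higher, and their median was -1.31. Of the 5 at the floor on both arrays 2 were lower by that much. Their summed level was 9516 in wt and 4422 in ko, and Lyz2, the highest of the list, read 12.75 in wt and 11.31 in ko. Adgre1, which encodes a surface marker of macrophages, had the largest drop (8.09 in wt and 5.08 in ko). The other 3 of the 9 compared did not follow: Csf1r was higher in ko (0.38), and Cd14 (0.002) and Fcgr1 (-0.051) hardly differed. On the same array Ccl9, Ccl6, Cxcl16 and Ccl5 had lower values than in wt, and Ccl3 a higher one (0.95). In CD4-equivalent DCs 12 neutrophil markers reached the floor in ko and 4 in wt, so most entered the comparison through the ko array alone. With low values at the floor 6 of 12 were higher in ko by 2-fold or more, and of the 4 at the floor on both arrays Lcn2 (3.80) and S100a8 (3.08) were higher and Mmp8 (-0.69) and Csf3r (-0.74) lower. The summed level of the list was 1092 in wt and 4301 in ko, while the macrophage list stood at 17492 and 16653. Plasmacytoid DC markers also summed higher in ko CD4-equivalent DCs (9803 against 5115), with 3 of 9 at least 2-fold higher, and less so in CD8-equivalent DCs (15219 against 12644). The CD8-equivalent markers higher in ko CD4-equivalent DCs are given above. The part of all these markers in the chemokine differences was not tested. Of the neutrophil list 0 of 14 measured genes in wt and 1 in ko reached the floor in CD8-equivalent DCs. That gene was Mpo, which read 7.55 in ko and 4.79 in wt there, and 7.02 in ko and 5.18 in wt CD4-equivalent DCs. Both wt values of Mpo lie below the floor. Of 7 markers of mast cells, basophils and eosinophils 1 reached the floor on any array, Cpa3 in ko CD8-equivalent DCs (5.93, against 4.90 in wt). Of 7 B cell markers 1 to 3 reached the floor on an array.

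**Figure D4:**
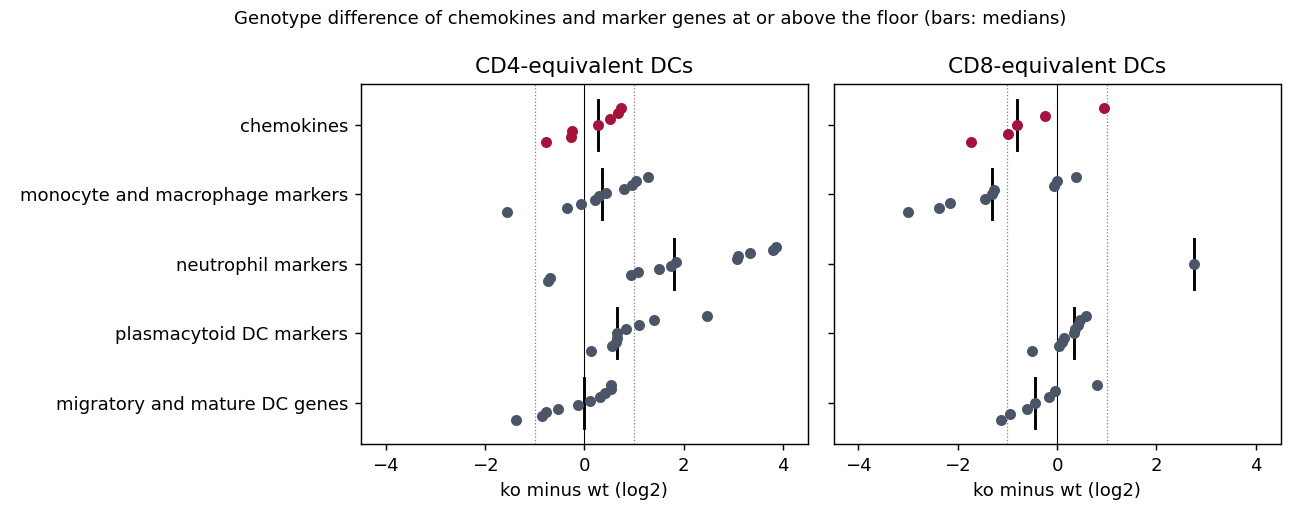
Difference between ko and wt (log2, horizontal axis) in CD4-equivalent (left) and CD8-equivalent DCs (right) for the chemokines (red) and for 4 marker lists (grey), 1 point a gene at or above the floor in that comparison, with a black bar at each median. The chemokine points lie within 2-fold on the left, and on the right the chemokine and macrophage medians are both below 0 (-0.80 and -1.31).

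Genes of migratory and mature DCs lay on both sides of 0 between genotypes in CD4-equivalent DCs. Of 10 such genes compared in CD4-equivalent DCs 5 were higher and 5 lower in ko, and only Cd86, a costimulatory ligand for T cells, passed 2-fold (-1.37). In CD8-equivalent DCs 6 of 7 were lower, again with Cd86 alone past 2-fold (-1.12).

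Of the CC genes, 5 lie in 1 stretch of chromosome 11, in the RefSeq order Ccl5, Ccl9, Ccl6, Ccl3 and Ccl4, with E230016K23Rik between Ccl9 and Ccl6. The subset difference ran through this stretch but not evenly: in wt it was -3.13 for Ccl5, -3.38 for Ccl9, -2.34 for Ccl6 and -1.99 for Ccl3, while Ccl4, E230016K23Rik and the outer neighbour Heatr9 were below the floor on all arrays. Wfdc17, which follows Ccl4 on the array, read 13.42 and 13.34 in wt and ko CD4-equivalent DCs and 11.99 and 10.87 in wt and ko CD8-equivalent DCs. Its lowest value was in ko CD8-equivalent DCs, as for Ccl5, Ccl9 and Ccl6 but not Ccl3. Cxcl16 lies elsewhere on chromosome 11, between Med11 and Zmynd15. Med11 (8.70 to 9.08) stayed within a narrow range. Zmynd15 reached the floor in ko CD4-equivalent DCs alone (5.81). It read 5.59 in wt CD4-equivalent DCs, and 5.05 and 5.02 in wt and ko CD8-equivalent DCs.

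**Figure D5:**
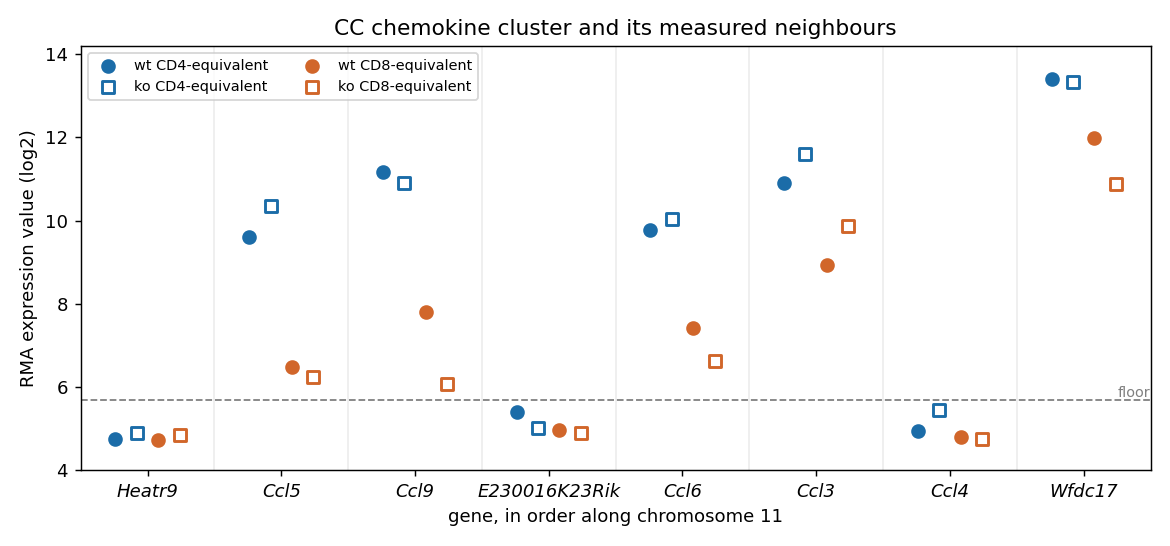
RMA log2 value (vertical axis) of the genes of the CC chemokine stretch and the measured gene on either side, in their order along chromosome 11 (horizontal axis, not to scale), on the 4 arrays; circles are wt, open squares ko, blue CD4-equivalent and orange CD8-equivalent DCs, and the dashed line is the floor of 5.68. Ccl5, Ccl9, Ccl6, Ccl3 and Wfdc17 are above the line with blue above orange, and Ccl4, E230016K23Rik and Heatr9 are below it.

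The rest of the chemokine family was hardly seen. Of 28 other chemokine genes listed, 26 were measured, and 3 reached the floor on some array: Ccl25, a ligand of CCR9 (6.15 to 6.87), the platelet chemokine Ppbp (6.78 in ko CD8-equivalent DCs alone, and 5.12 to 5.66 elsewhere) and the B cell attractant Cxcl13 (5.74 in ko CD8-equivalent DCs, and 5.51 to 5.58 elsewhere). Ppbp was the 1 gene of the 3 past 2-fold between genotypes (1.12 in CD8-equivalent DCs), and 0 of the 3 passed limma in either test. The monocyte attractants Ccl2 (4.79 to 5.26) and Ccl7, the T cell zone chemokine Ccl19 and the neutrophil attractants Cxcl1 and Cxcl2 stayed below the floor on all arrays.

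Of 8 receptors for these chemokines that were measured, 3 reached the floor. Ccr1, the receptor for Ccl3, Ccl5, Ccl6 and Ccl9, read 10.21 in wt and 10.53 in ko CD4-equivalent DCs and 9.64 and 9.35 in wt and ko CD8-equivalent DCs, and was lower in CD8-equivalent DCs by limma (mean -0.87, adjusted p = 0.040). Cxcr3, the receptor for Cxcl9 and Cxcl10, went the other way: it read 8.63 and 7.53 in wt and ko CD4-equivalent DCs and 9.18 and 8.52 in wt and ko CD8-equivalent DCs, and was higher in CD8-equivalent DCs by limma (mean 0.77, adjusted p = 0.036). Cxcr3 was the 1 receptor past 2-fold between genotypes, at -1.10 in CD4-equivalent DCs (-0.66 in CD8-equivalent), and did not pass the genotype test (adjusted p = 0.099). The atypical receptor Ackr1 read 6.07 and 5.75 in ko CD4- and CD8-equivalent DCs and lay below the floor in wt. Ccr4, Cxcr6, Ccr3, Ccr8 and Ackr2 were below the floor on all arrays.

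Among proteases that act on chemokines, Dpp4, which trims the N-terminus of CXCL10 and other chemokines, had the lower value in ko in both subsets (-0.62 and -0.71, adjusted p = 0.10). The sheddases Adam10 and Adam17, which release CXCL16 from the membrane, differed by at most 0.21 between genotypes.

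Of 22 listed genes of signalling upstream of chemokines, 20 were measured and all 20 were above the floor. In the limma subset test 8 of the 20 were lower in CD8-equivalent DCs and 0 higher, where 6.35% of all genes tested were lower and 7.98% higher. Among them were Irf4, a transcription factor of CD4-equivalent DCs (mean -2.70, adjusted p = 0.0029), and the NF-kB subunits Relb (-1.16, adjusted p = 0.010) and Nfkb2 (-1.01, adjusted p = 0.016). The others were Irf7, Stat6, the GM-CSF receptor genes Csf2ra and Csf2rb, and Zfp36, whose product speeds the decay of cytokine messages. Irf4 is also on the list of CD4-equivalent DC markers, and Relb on that of migratory and mature DC genes. Irf8, a transcription factor of CD8-equivalent DCs, differed by 1.74 in wt and 0.56 in ko and did not pass (adjusted p = 0.061). In the genotype test 0 of the 20 passed. Past 2-fold between genotypes lay Irf8 in CD4-equivalent DCs (1.29) and Csf2rb in CD8-equivalent DCs (-1.08), and the next largest there were Ifngr1 (-0.56) and Irf7 (-0.55).

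For the 7 chemokines above the floor, the genes of most like pattern were found by the root-mean-square distance between log2 values over the 4 arrays, each gene centred on its own mean, among 1418 other genes that spanned at least 2-fold. For Ccl22 they were Kcne3 (distance 0.10), Mmp8 (0.17) and Cd209a (0.21). For Ccl3 they were Slamf9 (0.075), Ptgir (0.13) and Frmd4b (0.19), and for Ccl5 Hacd4 (0.23), Fn1 (0.23) and Fscn1 (0.25). Ccl6 lay nearest to Cd209a (0.15), Apobec1 (0.21) and Ms4a7 (0.22), and Ccl9 to Ms4a6d (0.077), Clec4a1 (0.29) and Ddx58 (0.46). Cxcl10 lay nearest to Zbp1 (0.065), Cd300lb (0.073) and Oas3 (0.081), and Cxcl16 to Trem2 (0.13), Cd83 (0.15) and Ust (0.15). Each distance rests on 4 arrays, and those of Ccl22 and Cxcl10 use CD8-equivalent values below the floor, so their nearest genes are only loosely set. The matches of Ccl5 share this limit, since the CD8-equivalent values of its named genes fell short of the floor. In wt and ko these read 5.20 and 5.13 for Hacd4, 5.44 and 5.35 for Fn1, and 5.00 and 5.19 for Fscn1. In ko CD8-equivalent DCs Ms4a7 (5.54), named for Ccl6, and Ddx58 (5.23), named for Ccl9, also fell short of it. Cd209a is also on the list of CD4-equivalent DC markers, Mmp8 on the neutrophil list, Ms4a7 on the macrophage list and Fscn1 on that of migratory and mature DC genes.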

How the data were processed

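Expression was measured on 4 Affymetrix arrays, 1 for each genotype and sorted subset. The deposited values are log2 summaries, 1 per probe set and array, and RMA and Partek are named per the submitters' processing notes, with no version. The log base was inferred from the values (3.52 to 14.3). No scanner values were used, so scale and centring could not be set against them; column medians ran from 5.87 to 5.94. RMA compresses low values, so differences near background are understated.

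In the platform annotation, 21789 of the 35399 probe sets had a single gene symbol, 1621 had several and 11989 had none here; 21698 matched RefSeq GRCm38.p6 by gene ID, with 0 symbols changed. Of 19938 genes, 999 had several probe sets and were read from the one with the highest mean. Differences of 1 or more were counted where the higher value reached the floor. Limma 3.58.1 (R 4.3.3, lmFit, eBayes, two-sided, Benjamini-Hochberg, threshold 0.05) fitted genotype and subset additively, with 1 residual and 3.98 prior degrees of freedom. Each effect is thus judged partly against how far its size differs across the other factor, and more against a spread pooled over all genes. The fit was tested on simulated data. Alternatives were cyclic loess, no floor, the mean of probe sets, a 1.5-fold threshold, a trended, robust prior and, added after seeing the data, low values set to the floor. Named were all 10 chemokines, the 3 largest differences and limma calls of each related list, and the 3 genes of nearest pattern; other names were chosen after their values were seen. The chemokines and lists were chosen with earlier results of these data known.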

Additional observations from a re-analysis of the deposited data

Results flagged for a closer look

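The genotype difference had opposite signs in the subsets for 3 of the 5 chemokines compared in both, and with 1 array a group this was not tested. Signs were opposite for 38% of all 9711 genes compared in both subsets, so the count is no result about the chemokines. Cxcl16 differed by 0.51 (ko minus wt) in CD4- and by -0.99 in CD8-equivalent DCs, a gap of -1.51. Ccl6 differed by 0.27 and -0.80, a gap of -1.07. Ccl5 differed by 0.75 and -0.25, a gap of -0.999, which became -1.16 after cyclic loess.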

How the results depend on the processing

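For the chemokines, 190 of 200 recomputed values kept their direction and their side of the threshold. Many of them could not have changed, so this count is no measure of robustness. Each chemokine had 1 probe set, so the 47 values under the mean of probe sets repeated the main ones. Dropping the floor or using 1.5-fold left every difference between 2 arrays as it was. The looser threshold could not fail a difference already past 2-fold. With values below the floor set to it, an alternative chosen after seeing the data, Cxcl10 no longer passed 2-fold between subsets in ko (-0.61). The other 9 kept their direction and came to pass: 6 genotype differences at 1.5-fold (Ccl3 in both subsets, Ccl5 and Cxcl10 in CD4-equivalent and Ccl6 and Cxcl16 in CD8-equivalent DCs), 2 after cyclic loess (Cxcl16 in CD8-equivalent DCs and the gap of Ccl5) and Ccl3 with the trended prior. The subset calls of Ccl3, Ccl5, Ccl6 and Ccl9 held in the limma alternatives run, with adjusted p from 0.00016 to 0.032. Those of Ccl22 and Cxcl10 did too, but rest on values below the floor.

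Over all genes, a 1.5-fold threshold raised the genes counted from 234 to 768 and from 214 to 807 between genotypes (CD4- and CD8-equivalent DCs), and from 524 to 1521 and from 738 to 2046 between subsets (wt and ko). Limma called 17 genes for genotype, 3 without the floor and 307 with the trended prior, and 1467 for subset, 946 without the floor; without it more genes are tested. Cyclic loess moved the share of higher genes from 59.4% to 69.3% between genotypes in CD4-equivalent DCs and from 46.5% to 34.6% between subsets in ko, where it moved the median of all genes compared by -0.10. No replicate could be left out, since each group holds 1 array, and detection near the floor limits Ccl17, Ccl4 and Cxcl9.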
